A study of Mus musculus with 3 samples.

Results

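Scavenger and endocytic receptors are the cell surface proteins with which the liver clears circulating waste. The 10 receptor genes Stab1, Stab2, Clec4g, Lyve1, Mrc1, Fcgr2b, Msr1, Marco, Cd163 and Clec4f were taken from the 55357 genes of the count matrices by their symbols alone, and all 10 were found. The data were 3 single-cell RNA libraries of mouse liver on the 10X Genomics Chromium 3′ platform, each pooling 2 male wild-type C57BL/6 mice that entered at 8 weeks of age. CON mice received no treatment. HFD mice were fed a diet with 60% of its calories from fat for 4 months, as a model of metabolic steatohepatitis, and CCL4 mice were kept on chow for 3 months and then received 0.1 mL of a 10% solution of carbon tetrachloride, a liver toxin, into the peritoneum 2 times a week for 4 weeks, as a model of fibrosis. Livers were digested with collagenase, and hepatocytes were mixed in equal parts with nonparenchymal cells, so shares of cell types depend on that mix. With 1 library per group there is no replicate check, no test across samples was possible, and differences between mice, digests and libraries cannot be told apart from the treatment.

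In the liver, waste molecules leave the blood through the fenestrated wall of the sinusoids. Sinusoidal endothelial cells take up soluble molecules and small particles such as hyaluronan, collagen fragments, modified lipoproteins and small immune complexes by clathrin-mediated endocytosis, whereas Kupffer cells, the resident macrophages attached to the sinusoids, take up larger particles, bacteria and dying cells by phagocytosis. The 2 cell types carry different sets of receptors, and some receptors, such as the mannose receptor, are known in both.

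Stab1 and Stab2 encode the stabilins, large receptors for modified lipoproteins, and the product of Stab2 also binds hyaluronan. Clec4g encodes LSECtin, a C-type lectin, and Lyve1 a hyaluronan receptor also known from lymphatic vessels. Mrc1 encodes the mannose receptor, which binds mannose-bearing glycoproteins and collagen fragments, and Fcgr2b the inhibitory receptor for the Fc part of IgG, which B cells and myeloid cells carry too. Msr1 and Marco encode class A scavenger receptors for modified lipoproteins and bacterial surfaces, Cd163 the receptor for haemoglobin bound to haptoglobin, and Clec4f a galactose-binding lectin of Kupffer cells. All 10 are protein coding in the GENCODE M21 annotation of GRCm38, the build used here for positions.

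Of the endothelial genes, Stab1 (ENSMUSG00000042286) lies at chr14:31139013-31168641, Stab2 (ENSMUSG00000035459) at chr10:86841198-87008025, Clec4g (ENSMUSG00000074491) at chr8:3707064-3720651 and Lyve1 (ENSMUSG00000030787) at chr7:110850607-110863239, all on the minus strand. Mrc1 (ENSMUSG00000026712) lies at chr2:14229392-14332057 on the plus strand and Fcgr2b (ENSMUSG00000026656) at chr1:170958617-170976547 on the minus strand. Of the macrophage genes, Msr1 (ENSMUSG00000025044) lies at chr8:39581685-39642673, Marco (ENSMUSG00000026390) at chr1:120474538-120505024 and Clec4f (ENSMUSG00000014542) at chr6:83644542-83656187 on the minus strand, and Cd163 (ENSMUSG00000008845) at chr6:124304656-124330527 on the plus strand. Stab1 overlaps Nt5dc2 on the other strand, Stab2 overlaps 5 antisense genes or pseudogenes, Clec4g and Fcgr2b 1 antisense gene each and Mrc1 the microRNA gene Mir511. How the counting treated strand was not given in the sources used here, so reads from these overlaps cannot be told apart.

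RefSeq promoter sequences on GRCm38.p6 matched 8 of the 10 genes, all but Msr1 and Lyve1. Of the 8 windows of 250 bases before the start of transcription, the 4 that lie wholly outside the annotated span of their own receptor gene are printed. Overlap of the windows with other genes was not checked. The 4 set 2 receptors with their highest level in endothelial-like cells beside 2 with their highest level in Kupffer cell-like cells. They are Stab1 (chr14:31168642-31168891, minus strand), Clec4g (chr8:3720652-3720901, minus strand), Marco (chr1:120505025-120505274, minus strand) and Cd163 (chr6:124304401-124304650, plus strand). Each reads 5′ to 3′ toward the start, with capitals where a searched motif was found.
Stab1: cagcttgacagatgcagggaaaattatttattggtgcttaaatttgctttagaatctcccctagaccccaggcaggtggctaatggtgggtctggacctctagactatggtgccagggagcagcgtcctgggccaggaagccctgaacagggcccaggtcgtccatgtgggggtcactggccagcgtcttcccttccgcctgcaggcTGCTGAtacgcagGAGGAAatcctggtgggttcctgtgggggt
Clec4g: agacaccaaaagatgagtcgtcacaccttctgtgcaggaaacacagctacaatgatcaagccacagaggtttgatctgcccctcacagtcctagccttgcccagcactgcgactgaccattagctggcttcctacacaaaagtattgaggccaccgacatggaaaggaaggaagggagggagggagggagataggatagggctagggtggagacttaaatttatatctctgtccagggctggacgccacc
Marco: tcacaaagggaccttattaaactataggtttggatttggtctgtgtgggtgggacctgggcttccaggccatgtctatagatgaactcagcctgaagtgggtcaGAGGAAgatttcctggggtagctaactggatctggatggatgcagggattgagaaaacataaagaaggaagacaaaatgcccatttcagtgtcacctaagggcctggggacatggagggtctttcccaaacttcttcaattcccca
Cd163: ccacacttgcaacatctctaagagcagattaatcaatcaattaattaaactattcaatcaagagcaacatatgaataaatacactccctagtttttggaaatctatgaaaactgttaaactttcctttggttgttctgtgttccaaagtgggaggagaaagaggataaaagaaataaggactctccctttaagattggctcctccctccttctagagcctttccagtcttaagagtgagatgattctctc
Motifs were searched on both strands, and the share that holds each is given over 32851 RefSeq windows of the same length. The ETS factor motif GGAAGT was found in 19.7% of the windows. The motif of PU.1, the ETS factor of myeloid cells, was searched as GAGGAA and found in 23.3%. The GATA factor motif was searched as AGATAA and found in 9.99%, the AP-1 motif as TGANTCA in 6.75% and the MAF factor motif as TGCTGA in 16.1%. The ETS and PU.1 motifs can overlap, since they share a core of letters. The Stab1 window held the PU.1 motif 30 bases and the MAF motif 43 bases before the start, the Marco window held the PU.1 motif 146 bases before it, and the Clec4g and Cd163 windows held none. Among the windows not printed, Mrc1 held the PU.1 motif 3 times and the ETS motif 1 time, Clec4f the ETS and MAF motifs, Fcgr2b the ETS motif and Stab2 none. These are letter matches in short windows, not binding sites.

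The libraries held 11245 (CON), 12984 (HFD) and 12761 (CCL4) barcodes with medians of 2939, 2336 and 2173 UMIs (unique molecular identifiers, 1 per captured RNA molecule) and totals of 34061186 to 49613255 UMIs. Between 36 and 52 barcode sequences were shared by each pair of libraries. Cells were clustered and named without the 10 receptors, and a class is called by the markers it carried, as in endothelial-like. Hepatocyte transcripts were present in every class and were highest in CCL4. In T cell-like cells, 12 hepatocyte markers together reached 15653, 42912 and 77754 CPM (UMIs of a gene scaled to a total of 1000000 UMIs of the class) in CON, HFD and CCL4. CCL4 also held 4651 cells without a class name, against 76 in CON and 117 in HFD.

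The 3 libraries gave 4557 (CON), 4197 (HFD) and 1096 (CCL4) UMIs of the 10 genes in all cells. Every gene had fewer UMIs in CCL4 than in CON. Fcgr2b gave 1725, 1655 and 506 UMIs, Clec4g 773, 721 and 171, and Mrc1 667, 595 and 124. The genes with few UMIs were Marco with 33, 145 and 0, Cd163 with 42, 16 and 6, and Clec4f with 101, 149 and 20. At these depths a count of 0 allows up to 3 UMIs, which is 0.0606, 0.0858 and 0.0881 CPM of the whole library. Marco was therefore at or below 0.0881 CPM over the CCL4 library, against 0.666 CPM in CON and 4.15 CPM in HFD.

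The receptors fell into 2 groups by the class that held their UMIs. Over the 3 libraries, endothelial-like cells held 81.8% of the Stab1 UMIs, 79.7% of Stab2, 78.5% of Lyve1, 77.8% of Clec4g, 74.1% of Mrc1 and 49.8% of Fcgr2b. Kupffer cell-like cells held 60.4% of Clec4f, 49.4% of Marco and 26.6% of Cd163. Msr1 was spread over classical monocyte-like cells with 35.4%, endothelial-like cells with 28.3% and Kupffer cell-like cells with 16.0%. For Mrc1 the second share was in Kupffer cell-like cells with 10.8%, and for Fcgr2b in classical monocyte-like cells with 12.6%, followed by B cell-like cells with 7.05%. Hepatocyte-like cells, the most numerous class, held 25.3% of the Marco UMIs.

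**Figure D1:**
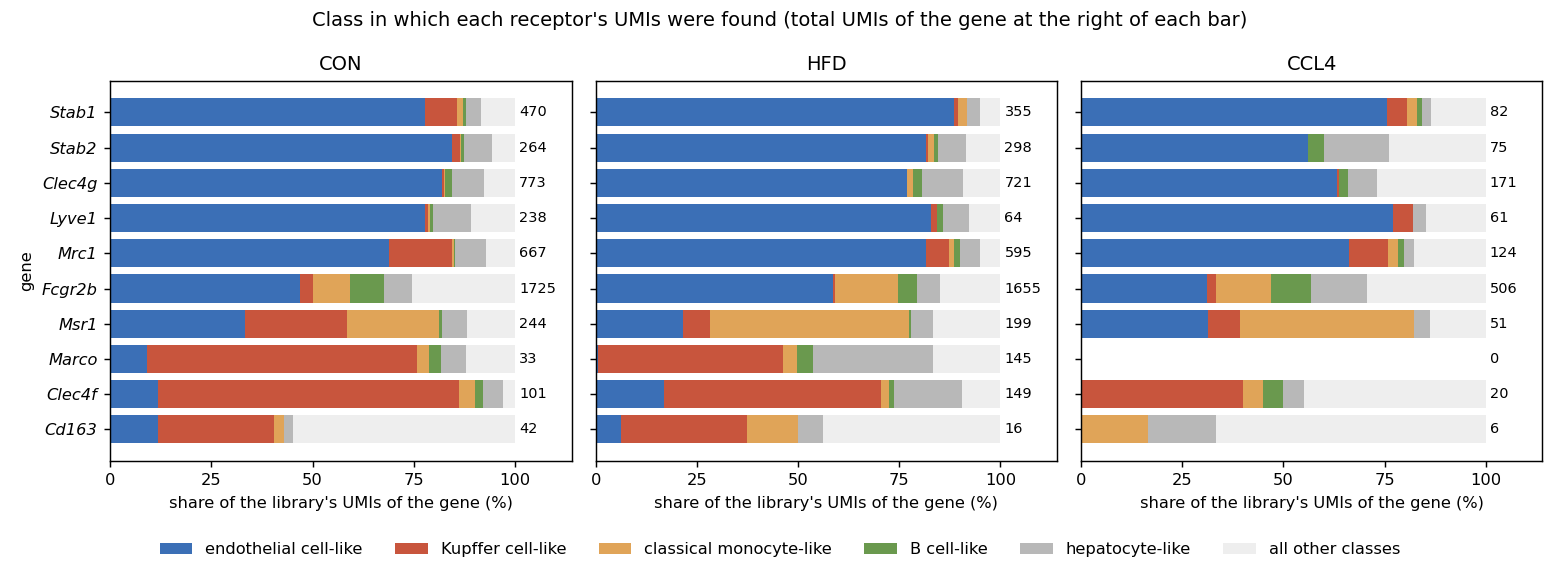
Share of each receptor's UMIs in a library (%, horizontal axis) that came from each cell class (colours), with a panel per library (CON, HFD, CCL4), a bar per receptor and the receptor's total UMIs at its right. Stab1, Stab2, Lyve1, Clec4g and Mrc1 sit mostly in endothelial-like cells, and the CCL4 bar of Marco is empty, since that library held 0 Marco UMIs.

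By the level within a class, averaged over the libraries, the 6 genes Stab1, Stab2, Clec4g, Lyve1, Mrc1 and Fcgr2b were highest in endothelial-like cells and the 4 genes Msr1, Marco, Cd163 and Clec4f in Kupffer cell-like cells. In CCL4 the order of the values differed for Mrc1 and Cd163, though within counting error. In CCL4, Mrc1 read 189 CPM in Kupffer cell-like and 162 CPM in endothelial-like cells, and the ratio of endothelial-like to Kupffer cell-like cells of 0.857 had a 95% interval of 0.465 to 1.73 that includes equality. All intervals given here cover counting error only, not the spread between mice or between cells. They are exact, except those of values scaled to marker UMIs, which are normal intervals on a log scale. In CCL4, the highest Cd163 level was 5.14 CPM in conventional dendritic cell-like cells, from 2 UMIs (0.622 to 18.6). Kupffer cell-like cells had 0 UMIs of Cd163 there, with an interval up to 58.2 CPM, so these classes could not be ranked.

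**Figure D2:**
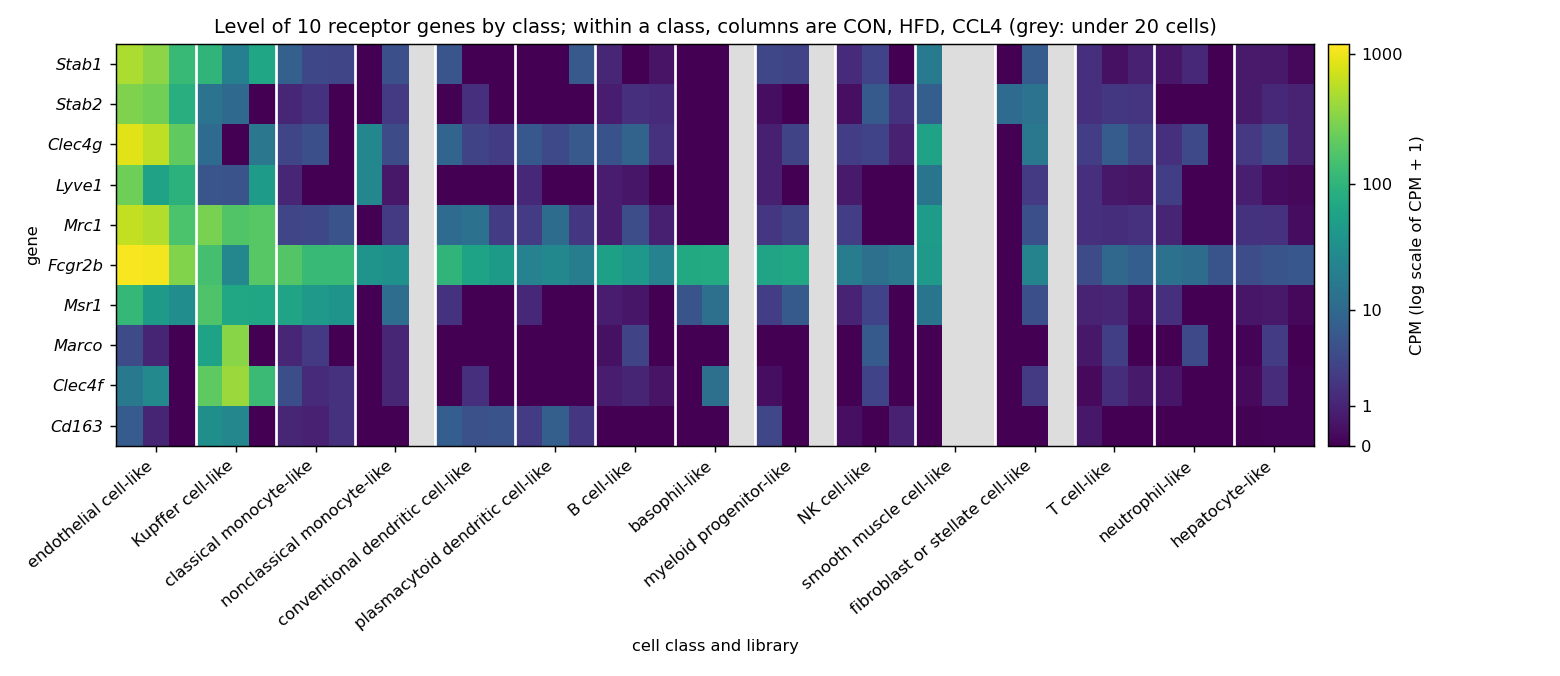
Level of the 10 receptors (rows) in each cell class and library (columns CON, HFD, CCL4 within a class), as log10(CPM + 1) on the colour scale, with classes of fewer than 20 cells in a library in grey. The 6 endothelial receptors form a block in endothelial-like cells, and Clec4f reads 207, 408 and 126 CPM in Kupffer cell-like cells.

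Endothelial-like cells numbered 152 in CON, 301 in HFD and 153 in CCL4, with median depths of 4024.5, 2581 and 2696 UMIs. All 17 markers of the endothelial list were detected in each library. Among them, sub-clusters with markers of sinusoidal endothelium held 76, 165 and 50 cells and a sub-cluster with markers of larger vessels held 22, 3 and 0 cells. The other 54, 133 and 103 cells lay in sub-clusters that also carried markers of another class, and 0, 6 and 62 of them in a sub-cluster with hepatocyte markers. Of the sinusoidal cells, 75 in CON lay in sub-cluster 0, 164 in HFD in sub-cluster 7 and 44 in CCL4 in sub-cluster 9, so library and sub-cluster cannot be told apart within this set.

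Stab1 read 500 CPM in CON, 345 in HFD and 123 in CCL4 endothelial-like cells, with intervals of 450 to 554, 308 to 385 and 94.0 to 157. It was seen in 79.6%, 59.1% and 26.8% of these cells, against 0.322%, 0.171% and 0.0651% of hepatocyte-like cells at median depths of 3803, 2291 and 3309 UMIs. With each cell thinned to 1000 UMIs, the shares in endothelial-like cells were 40.3%, 29.8% and 13.2%. The 3 libraries thus kept the same order on both scales, and the intervals of the levels did not overlap.

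Stab2 read 305, 267 and 83.1 CPM in the same cells. Its CON interval of 266 to 348 overlapped the HFD interval of 235 to 303, and the CCL4 interval of 59.9 to 112 lay below both. Thinned shares were 26.3%, 23.7% and 9.24%. Of the stabilins, only Stab2 had overlapping intervals between CON and HFD.

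Clec4g, the lectin, read 865, 610 and 214 CPM, in 74.3%, 71.8% and 39.2% of the cells. T cell-like cells, which should lack it, had a UMI in 0.680%, 1.58% and 0.645%, at median depths of 2380.5, 2214 and 2020 UMIs. Mrc1 read 629, 533 and 162 CPM, in 69.1%, 64.8% and 35.3%. Fcgr2b read 1105, 1068 and 311 CPM, in 76.3%, 80.1% and 51.0%, where T cell-like cells had 1.08%, 2.09% and 1.44%. For these 3 genes CCL4 was the lowest library, and the intervals of CON and HFD overlapped for Mrc1 and Fcgr2b but not for Clec4g.

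Lyve1, the hyaluronan receptor, had a different order. It read 253 CPM in CON (218 to 292), 58.2 in HFD (43.6 to 76.2) and 93.0 in CCL4 (68.3 to 124), and was seen in 38.8%, 14.0% and 17.6% of the endothelial-like cells. Thinned to 1000 UMIs, these shares were 18.7%, 5.71% and 8.18%. HFD was the lowest library for Lyve1, and the HFD and CCL4 intervals overlapped. Msr1 read 111, 47.3 and 31.6 CPM and was seen in 28.3%, 8.64% and 9.15%, with HFD and CCL4 again overlapping.

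The 3 other receptors had few UMIs in endothelial-like cells. Clec4f had 12, 25 and 0 UMIs from 3, 7 and 0 cells, Marco 3, 1 and 0 UMIs and Cd163 5, 1 and 0 UMIs. A few cells with several UMIs each thus made up the Clec4f level, which was 82.6-fold that of T cell-like cells in CON (12.2 to 3531) and 17.8-fold in HFD (7.76 to 45.5). Cd163 in CON was 11.5-fold that of T cell-like cells (2.23 to 73.9), and Marco in HFD was at 0.406 of it (0.00960 to 2.67).

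In CON, the 7 receptors with at least 20 UMIs over the 2 classes compared were all at least 5-fold higher in endothelial-like than in hepatocyte-like cells, as were 24.5% of the 12241 genes tested. The ratios ran from 203 for Msr1 to 766 for Stab1. In Kupffer cell-like cells, 8 of 9 tested receptors were at least 5-fold above hepatocyte-like cells, beside 21.6% of 11809 genes, and the other, Clec4g, was 4.98-fold higher. Of the 8, Lyve1 rested on 2 UMIs in Kupffer cell-like cells, with a ratio of 6.90 whose interval of 0.787 to 28.1 includes 1, and passed the minimum through 22 UMIs in hepatocyte-like cells. Here the genes that passed the minimum of 20 UMIs had to be counted in at least 1 of the classes, so these counts describe those genes and not the whole set.

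Between the 2 main classes, the CON ratios of endothelial-like over Kupffer cell-like level spanned the whole range from endothelial to macrophage receptors. Clec4g was 78.5-fold higher in endothelial-like cells (30.5 to 289), Lyve1 45.9-fold (12.5 to 382), Stab2 22.1-fold (9.34 to 68.8) and Fcgr2b 7.42-fold (5.63 to 9.97). Stab1 was 4.91-fold (3.49 to 7.08) and Mrc1 2.22-fold (1.79 to 2.77) higher, and the ratio nearest to equality was that of Msr1, at 0.648 (0.460 to 0.917). Msr1, Cd163 at 0.207, Clec4f at 0.0794 and Marco at 0.0676 were lower in endothelial-like cells of CON. For Msr1 this depended on the cells compared. In CON sinusoidal cells alone it read 214 CPM, at 1.25 of the Kupffer cell-like level of 171 CPM (0.866 to 1.81). The Msr1 ratios of endothelial-like over Kupffer cell-like cells in HFD, 0.712 (0.376 to 1.44), and CCL4, 0.501 (0.162 to 2.06), also included 1. Stab2 thus differed more between the classes than its paralogue Stab1. In HFD the ratio of Stab1 was 16.9 and that of Fcgr2b 41.9, while the CCL4 ratio of Stab1 was 1.94 with an interval of 0.722 to 7.36.

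Within the endothelium, the 22 vascular cells of CON separated the receptors further. Stab1 read 484 CPM there, from 48 UMIs in 81.8% of the cells, against 621 CPM in CON sinusoidal cells, a ratio of 1.28 (0.929 to 1.80) that includes equality. Stab2 read 500 CPM in the sinusoidal cells and had 0 UMIs in the vascular ones. With the floor count used in place of the 0, it was 16.5-fold higher in the sinusoidal cells, with an interval from 13.3 upward. Msr1 also had 0 UMIs in the vascular cells and was, set in the same way, 7.07-fold higher in sinusoidal cells, with an interval from 5.58 upward. Mrc1 was 11.1-fold (5.77 to 24.5), Lyve1 10.0-fold (3.81 to 37.4), Fcgr2b 7.94-fold (5.13 to 12.9) and Clec4g 5.66-fold (3.71 to 9.03) higher in sinusoidal cells. Stab1 was therefore the endothelial receptor whose level in the vascular cells could not be told from that in sinusoidal cells at this depth. Both sets were chosen by clustering without the receptors, and the vascular set came from 1 library.

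Single sinusoidal cells carried several receptors at the same time. Of the 10 genes, the median cell had 6 in CON, 4 in HFD and 4 in CCL4, and at least 3 were seen in 89.5%, 85.5% and 64.0% of the cells. After thinning to 1000 UMIs, the mean number was 3.36, 2.53 and 1.86. Kupffer cell-like cells had medians of 2, 1 and 1, with at least 3 receptors in 44.4%, 12.3% and 13.6%. Hepatocyte-like cells had none in 96.2%, 95.9% and 96.8%. In CON sinusoidal cells, Clec4g was seen in 96.2% of the cells with Stab2 and in 60.9% of those without. Lyve1 was seen in 54.7% of the CON sinusoidal cells with Stab2 and 26.1% of those without, and in HFD in 18.9% and 12%. Cells with more UMIs have more of every gene, and these shares were not thinned.

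The next comparison asked how far each model differed from the control within endothelial-like cells. In HFD, of the 8 receptors with at least 20 UMIs over both libraries, 0 were at least 2-fold higher, where 10.9% of 8705 genes were, and 2, Msr1 and Lyve1, were at least 2-fold lower, where 13.9% were. Lyve1 in HFD was 0.230 of CON (0.166 to 0.314) and Msr1 0.427 (0.288 to 0.625). The others were nearer to CON, with Stab1 at 0.690 (0.591 to 0.804), Clec4g at 0.705 (0.628 to 0.791), Mrc1 at 0.848 (0.744 to 0.965), Stab2 at 0.876 (0.727 to 1.06) and Fcgr2b at 0.967 (0.880 to 1.06). Clec4f was at 1.67 (0.811 to 3.66). The median of the 8 was 0.776, against 0.846 over all genes tested.

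In CCL4, 7 of 7 tested receptors were at least 2-fold lower than in CON endothelial-like cells, in a background where 36.1% of 7635 genes were lower and 12.6% higher by that much. Stab1 was at 0.245 of CON (0.184 to 0.322), Clec4g at 0.247 (0.199 to 0.303), Mrc1 at 0.258 (0.201 to 0.327) and Stab2 at 0.272 (0.191 to 0.380). Fcgr2b was at 0.281 (0.235 to 0.334), Msr1 at 0.286 (0.156 to 0.493) and Lyve1 at 0.368 (0.261 to 0.509). The 7 ratios had a median of 0.272, against 0.655 over all genes tested, and 0 of the 7 were higher. Msr1 passed the minimum of UMIs through CON, with 81 there and 16 in CCL4. Clec4f had 12 UMIs in CON and 0 in CCL4. With the floor count used in place of the 0, it was at 0.362 of CON, and its interval reached 0.521. The CON UMIs came from a few cells, as given above, a spread that the interval leaves out, so Clec4f could not be ranked between these libraries.

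The same cells differed in how much endothelial RNA they held. The 17 endothelial markers together read 13777 CPM in CON, 9076 in HFD and 3768 in CCL4, which is 0.659 and 0.274 of CON, while 12 hepatocyte markers read 8848, 35177 and 86174 CPM, among them Alb, the albumin gene, with 2651, 16273 and 49254 CPM. The part of hepatocyte RNA in the receptors' lower levels was not tested. The receptors were also scaled to the endothelial markers, an alternative chosen after seeing the data. Per 100 endothelial marker UMIs, CON, HFD and CCL4 held 3.63, 3.80 and 3.25 Stab1 UMIs, 6.28, 6.72 and 5.67 Clec4g UMIs, and 2.21, 2.94 and 2.20 Stab2 UMIs. On that scale 0 of the 7 receptors were 2-fold lower in CCL4. The ratios to CON ran from 0.896 for Stab1 to 1.34 for Lyve1 (0.972 to 1.86), and all 7 intervals included 1.

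Lyve1 in HFD was lower on either scale. Per 100 endothelial marker UMIs it was counted 1.84 times in CON, 0.642 times in HFD and 2.47 times in CCL4, a ratio of HFD to CON of 0.350 (0.257 to 0.475). Msr1 was counted 0.804, 0.521 and 0.840 times, at 0.648 (0.447 to 0.939) in HFD. Fcgr2b on this scale was higher in HFD, with 8.02, 11.8 and 8.24 UMIs and a ratio of 1.47 (1.33 to 1.62), and so were Stab2 at 1.33 (1.11 to 1.60) and Mrc1 at 1.29 (1.13 to 1.47). Mrc1 was below CON in CPM and above it per endothelial marker UMI, so its direction in HFD depended on the scale.

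**Figure D3:**
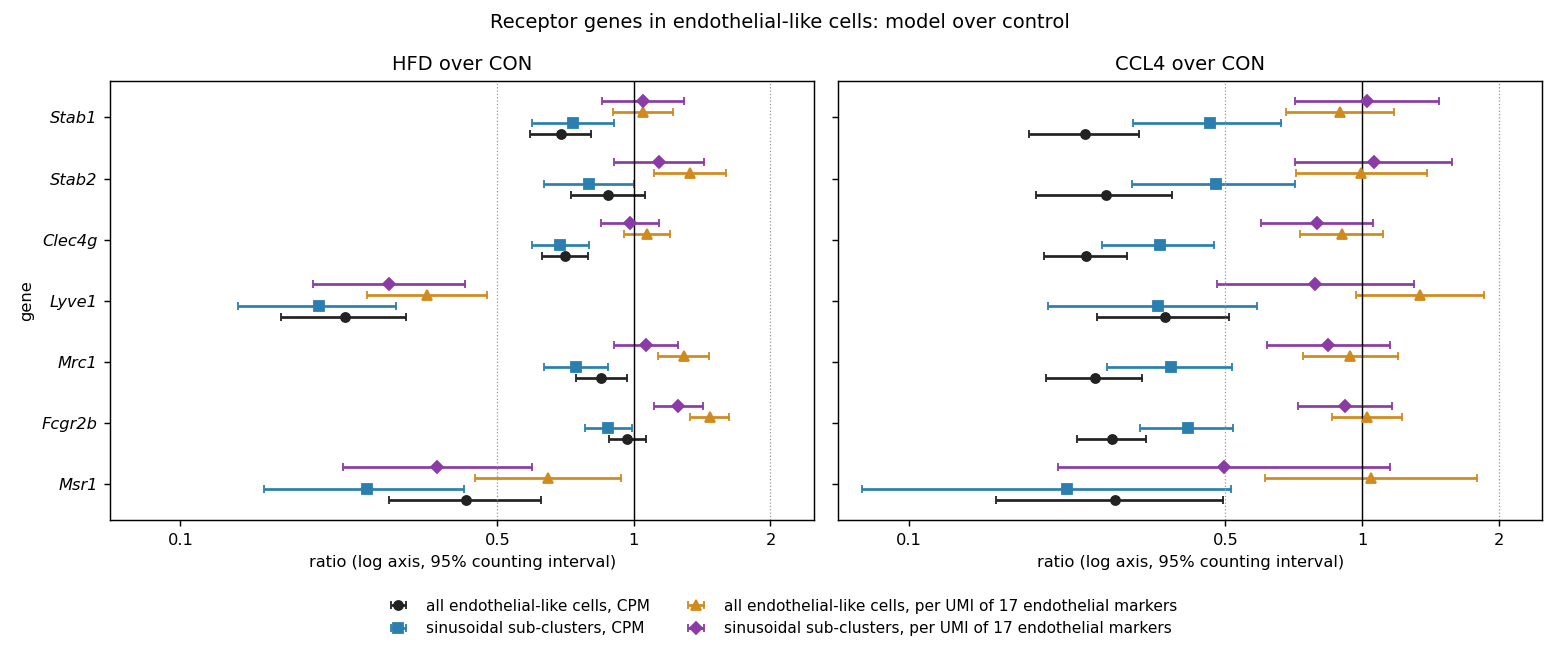
Ratio of each model to CON (horizontal axis, logarithmic) for 7 receptors (rows) in the HFD and CCL4 panels, with 95% intervals for counting error, given for all endothelial-like cells and for sinusoidal cells, each in CPM and per UMI of 17 endothelial markers. Dotted lines mark 0.5 and 2. Lyve1 lies below 0.5 in HFD in all 4 versions, and the CCL4 points in CPM lie below 0.5 but between 0.496 and 1.34 when scaled to the markers.

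Sinusoidal cells alone kept CON as the highest library for all 7 receptors. They leave out the sub-cluster named vascular (22, 3 and 0 cells) and the sub-clusters with markers of other classes. Genes of the vascular list still differed between these sets, as given below, so the ratios may compare unlike cells. Stab1 read 621, 456 and 287 CPM in CON, HFD and CCL4, Stab2 500, 398 and 239, and Clec4g 1312, 902 and 470. Fcgr2b read 1681, 1476 and 693, Mrc1 1008, 751 and 382, Lyve1 404, 81.6 and 143, and Msr1 214, 55.2 and 47.8. Each gene was higher here than in all endothelial-like cells of the same library. CCL4 was nearer to CON for Stab1, Stab2, Clec4g, Mrc1 and Fcgr2b, with Stab1 at 0.462 of CON in place of 0.245 and Stab2 at 0.478 in place of 0.272. It was not for Lyve1, at 0.355 in place of 0.368, and Msr1, at 0.223 in place of 0.286.

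In these sinusoidal cells the HFD comparison had Lyve1 at 0.202 of CON (0.134 to 0.298) and Msr1 at 0.258 (0.153 to 0.422), again the 2 of 7 tested that were at least 2-fold lower, where 11.8% of 5582 genes were, and 0 were higher, where 11.0% were. In CCL4, 7 of 7 were at least 2-fold lower, where 21.8% of 3895 genes were, and 0 were higher, where 10.1% were. Msr1 and Lyve1 passed the minimum of UMIs through CON, with 62 and 117 there and 6 and 18 in CCL4. The CCL4 ratios were 0.223 for Msr1, 0.355 for Lyve1 (0.203 to 0.586), 0.358 for Clec4g, 0.379 for Mrc1 and 0.412 for Fcgr2b. The medians were 0.734 in HFD and 0.379 in CCL4, against 0.903 and 0.796 over all genes tested. Endothelial markers in the sinusoidal cells read 17133, 12010 and 7712 CPM. Scaled to them, Lyve1 in HFD was at 0.288 (0.196 to 0.423) and Msr1 at 0.368 (0.228 to 0.595), and the 7 CCL4 intervals all included 1. Fcgr2b in HFD was at 0.878 of CON (0.778 to 0.991) in CPM and at 1.25 (1.11 to 1.42) scaled to the markers, so its direction depended on the scale.

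The sinusoidal cells of the 3 libraries also differed in markers of other endothelial types. The 8 genes of the vascular list read 960, 713 and 566 CPM together in CON, HFD and CCL4, with 0, 1 and 3 of them at 0. Among them Rspo3 read 20.7, 394 and 327 CPM, Efnb2 207, 28.8 and 104, and Ly6c1 131, 0 and 0. The 4 genes of the lymphatic list read 262, 139 and 47.8 CPM, with 1, 1 and 3 at 0, and among them Ccl21a read 117, 26.4 and 0. Within these cells, Lyve1 was thus lower in the libraries where Efnb2, Ly6c1 and Ccl21a were lower and Rspo3 was higher. Over all endothelial-like cells Rspo3 had the reverse order, with 803, 619 and 214 CPM. The sinusoidal cells held 6 of its 587 UMIs in CON, 164 of 563 in HFD and 41 of 108 in CCL4. The Rspo3 difference therefore depended on which cells the sinusoidal set held in each library. These genes are named from values already seen. Cd34, Sox17, Gja4 and Mmrn1 were also lower in both models. Vwf was higher in both, at 17.3, 31.2 and 31.9 CPM, but read 246, 65.9 and 15.8 CPM over all endothelial-like cells. Wnt9b read 10.4, 16.8 and 0 CPM, Prox1 82.8, 79.2 and 47.8, and Pdpn had 0 UMIs in each. The part of these endothelial types in the Lyve1 and Msr1 levels was not tested.

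Kupffer cell-like cells numbered 72, 73 and 22, with median depths of 4667, 2600 and 2791 UMIs. The class was led by the complement genes C1qa, C1qb and C1qc and by Cd5l and Vsig4, and it was mixed. In CON, Clec4f was seen in 13 of the 72 cells. Of the 12 Kupffer cell markers, 6 were seen in a larger share of those 13 cells than of the others and 6 in a smaller one. Vsig4 was seen in 76.9% against 10.2% and Cd5l in 84.6% against 25.4%, while Hpgd was seen in 53.8% against 67.8% and Adgre1 in 69.2% against 81.4%. Of the 7 classical monocyte markers, 5 had a smaller share in the Clec4f cells, among them Ccr2 with 0 against 45.8%, and Plac8 a larger one, with 30.8% against 20.3%. In HFD, Clec4f was seen in 22 cells, and all 12 Kupffer cell markers had a larger share in them, Vsig4 with 81.8% against 17.6%. Of the monocyte markers in HFD, 3 had a smaller share, with Ccr2 at 0 against 21.6%, and 2 a larger one, with Plac8 at 45.5% against 17.6% and F13a1 at 4.55% against 0. These genes are named from values already seen. The 12 markers of the Kupffer cell list read 11008, 7671 and 5901 CPM, and the 12 hepatocyte markers 9961, 37254 and 60797 CPM.

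Marco, the scavenger receptor for bacteria, read 60.6 CPM in CON (38.0 to 91.8), 337 in HFD (261 to 429) and 0 in CCL4, from 22, 66 and 0 UMIs, and was seen in 8.33%, 23.3% and 0% of the cells. The CCL4 value came from 0 UMIs in 22 cells, with an interval up to 58.2 CPM. The interval of the Marco ratio of CCL4 to CON reached 1.05 and so includes equality. Over the whole class, the CCL4 level of Marco could therefore not be told from that of CON at this depth. Clec4f, the Kupffer cell lectin, read 207 CPM (163 to 259), 408 (324 to 508) and 126 (54.5 to 249), in 18.1%, 30.1% and 9.09% of the cells. Both were highest in HFD, and after thinning to 1000 UMIs the shares were 4.65% and 16.1% for Marco in CON and HFD and 12.1% and 20.96% for Clec4f. Cd163, the haemoglobin receptor, had 12, 5 and 0 UMIs and gave 33.1 and 25.5 CPM in CON and HFD, with overlapping intervals.

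Mrc1 in Kupffer cell-like cells read 284 CPM (232 to 344), 174 (120 to 243) and 189 (97.8 to 331), in 59.7%, 37.0% and 31.8% of the cells. Msr1 read 171 CPM (131 to 219), 66.4 (35.3 to 113) and 63.1 (17.2 to 162), in 47.2%, 16.4% and 18.2%. The CON intervals of Msr1 did not overlap those of HFD, while CCL4 overlapped both. Fcgr2b read 149 CPM (112 to 194), 25.5 (8.29 to 59.6) and 189 (97.8 to 331), and Stab1 102 (71.8 to 141), 20.4 (5.56 to 52.3) and 63.1 (17.2 to 162). Both were lowest in HFD, with 5 and 4 UMIs. Stab2, Clec4g and Lyve1 had at most 5 UMIs in any library.

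In HFD against CON, 1 of the 6 receptors with at least 20 UMIs, Marco, was at least 2-fold higher in Kupffer cell-like cells, where 13.5% of 4307 genes were, and 3, Stab1, Msr1 and Fcgr2b, were at least 2-fold lower, where 22.3% were. These 3 passed the minimum through CON, with 37, 62 and 54 UMIs there and 4, 13 and 5 in HFD. The counts therefore describe the genes that passed and not the whole set. Marco was 5.56-fold higher (3.38 to 9.46) and Clec4f 1.98-fold (1.42 to 2.74). Fcgr2b was at 0.171 of CON (0.0535 to 0.425), Stab1 at 0.200 (0.0518 to 0.557), Msr1 at 0.388 (0.196 to 0.714) and Mrc1 at 0.611 (0.402 to 0.909). The median of the 6 was 0.500, against 0.794 over all genes tested. Scaled to the 12 Kupffer cell markers, Marco was 7.97-fold (4.90 to 12.96) and Clec4f 2.83-fold higher (2.06 to 3.91), so Clec4f passed 2-fold on that scale.

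In CCL4 against CON, 0 of 6 tested receptors were at least 2-fold higher, where 9.98% of 3558 genes were, and 1, Msr1, was at least 2-fold lower at 0.369 (0.0976 to 0.994), where 22.6% were. Stab1 at 0.619 (0.160 to 1.72), Mrc1 at 0.667 (0.334 to 1.22), Clec4f at 0.611 (0.254 to 1.27) and Fcgr2b at 1.27 (0.619 to 2.41) had intervals that include 1. The other, Marco, had 22 UMIs in CON and 0 in CCL4. It entered as 0.781 with 3 UMIs set for the 0, an upper bound. With that floor, a gene with 0 UMIs in CCL4 and few in CON could not be called lower, here or in the background. All 6 passed the minimum of UMIs through CON, with at most 12 in CCL4. The median of the 6 was 0.643, beside 0.818 over all genes tested. With 22 cells in CCL4, 2-fold differences in either direction were mostly within counting error.

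Because the class was mixed, its cells were split, after seeing the data, by whether a UMI of Vsig4, Timd4 or Cd5l, markers of resident Kupffer cells, was seen. The cells with any of them numbered 30, 37 and 12, and those with none 42, 36 and 10. In the former, Marco read 140, 653 and 0 CPM and Clec4f 459, 795 and 233 CPM. In the cells with none, Marco had 0, 2 and 0 UMIs and Clec4f read 14.6, 20.4 and 0 CPM. Marco and Clec4f were thus counted almost wholly in the cells with resident markers in CON and HFD. In CCL4 all 8 Clec4f UMIs lay there, and Marco had 0 UMIs in either part. Vsig4, Timd4 and Cd5l were each seen in a larger share of the Clec4f cells than of the others in CON and HFD. The placement of Clec4f therefore follows in part from the choice of markers. The median depths were 4976.5, 2394 and 2717 UMIs with these markers and 4446, 2835 and 2893 without.

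Within the cells with resident markers, Marco was 4.65-fold (2.83 to 7.93) and Clec4f 1.73-fold (1.24 to 2.42) higher in HFD than in CON by CPM. Clec4f had 72 UMIs in 30 CON cells and 78 in 37 HFD cells, from 12 and 20 positive cells. Its difference was thus seen in CPM and not in UMIs per cell. Marco had 22 and 64 UMIs, from 6 and 15 positive cells. Mrc1 in HFD was at 0.517 of CON (0.304 to 0.847). In the 12 CCL4 cells of this part, Marco was at 0.622 of CON with 3 UMIs set for the 0, and its interval reached 0.832. The CON UMIs came from 6 of 30 cells, a spread that the interval leaves out, so these levels could not be ranked. Over the whole class the matching interval included equality. Mrc1 read 434, 224 and 262 CPM in cells with resident markers and 170, 123 and 103 CPM in those with none. Fcgr2b values had the opposite place, with 51.0, 0 and 116 CPM in the cells with resident markers and 223, 51.1 and 276 CPM in the cells with none. The intervals were apart only in CON, at 22.0 to 101 against 163 to 298. They overlapped in HFD, from 0 and 5 UMIs, and in CCL4, from 4 and 8 UMIs. In HFD Fcgr2b was at 0.229 of CON in the cells with none (0.0710 to 0.574). In the cells with resident markers it was at 0.599 with 3 UMIs set for the 0, and its interval reached 0.936. All 6 Marco-positive Kupffer cell-like cells of CON also had Clec4f, as did 8 of 17 in HFD.

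**Figure D4:**
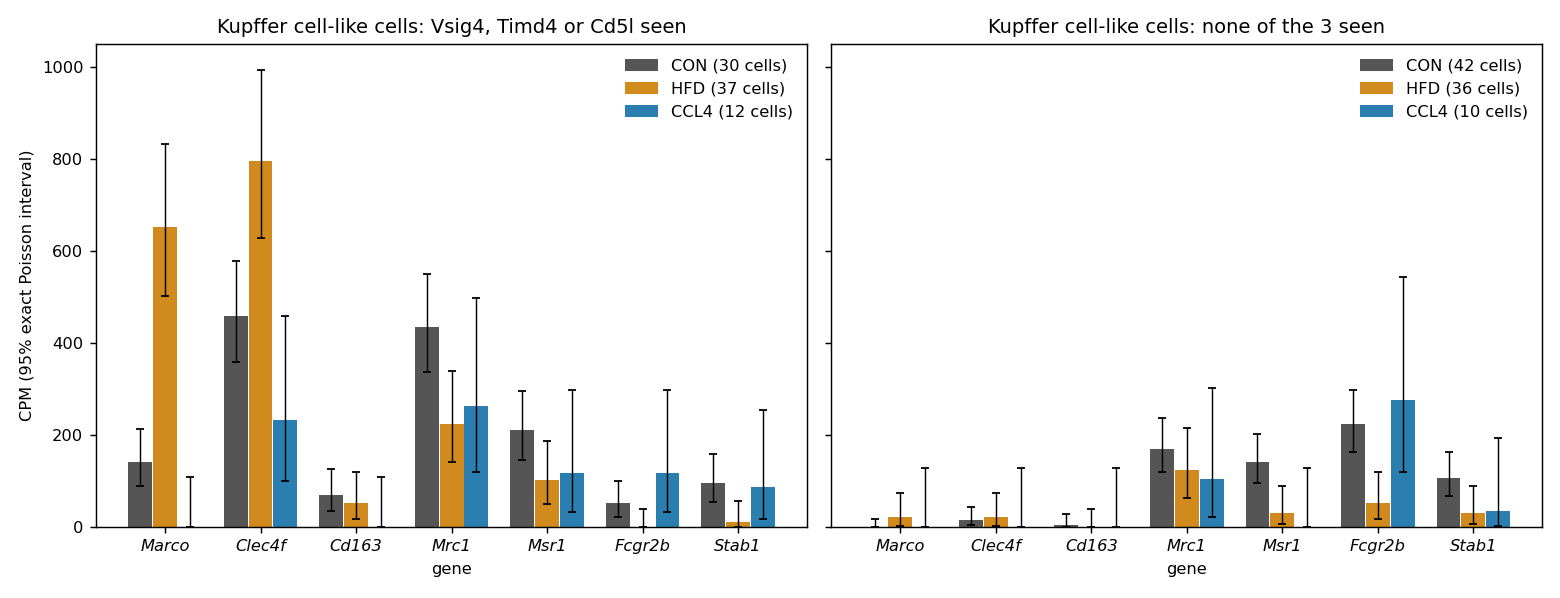
Level (CPM, vertical axis from 0) of 7 receptors in Kupffer cell-like cells of CON, HFD and CCL4, in the cells with a UMI of Vsig4, Timd4 or Cd5l and in those with none, with exact Poisson 95% intervals. Marco and Clec4f bars stand in the cells with these markers and are highest in HFD at 653 and 795 CPM. Fcgr2b bars are higher in the cells with none, with intervals that overlap in HFD and CCL4.

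The Kupffer cell-like values depended on which cells the class held. Clustered at resolution 2.0, it held 245 HFD cells, and Marco was then 2.36-fold higher than in CON (1.46 to 3.98) and Clec4f was at 0.755 (0.547 to 1.04). With each library clustered on its own it held 297 HFD cells, with Marco at 1.78 (1.10 to 3.00) and Clec4f at 0.599 (0.433 to 0.829). Without the 8% of barcodes with the highest doublet scores it held 241 CON cells, with Marco at 14.3, Clec4f at 5.41 and Mrc1 at 1.66. In cells with at least 2000 UMIs Marco was at 10.6, and counted per cell, without scaling to CPM, it was at 2.96 and Clec4f at 1.05 (0.758 to 1.46). Marco also had a UMI in 0.607% of HFD hepatocyte-like cells, from 43 UMIs, and in 0.651% of HFD T cell-like cells, so its level outside the class was higher in HFD than the 0.0403% and 0.170% of CON.

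Beyond these classes, Fcgr2b and Msr1 were receptors of other leukocytes. Fcgr2b read 180, 119 and 119 CPM in classical monocyte-like cells, in 45.1%, 28.5% and 25.7% of 204, 724 and 222 cells. It read 55.8, 42.5 and 22.2 CPM in B cell-like cells and 103, 60.1 and 46.2 CPM in conventional dendritic cell-like cells, against 4.17, 10.1 and 7.36 CPM in T cell-like cells. Over the whole of each class CON was the highest library. Relative to CON, HFD and CCL4 monocyte-like cells were at 0.660 (0.540 to 0.808) and 0.664 (0.493 to 0.885), B cell-like cells at 0.761 (0.571 to 1.01) and 0.398 (0.283 to 0.552), and conventional dendritic cell-like cells at 0.584 (0.374 to 0.900) and 0.449 (0.248 to 0.774). Most CON monocyte-like cells were cluster 8 and most others cluster 25, and the B cell-like cells were mostly clusters 10, 31 and 37 in CON, HFD and CCL4, so most of each ratio compares different clusters. In cluster 25, which all libraries share with 28, 719 and 222 cells, Fcgr2b read 56.3 CPM in CON (10 UMIs, with an interval up to 104), 119 in HFD (105 to 134) and 119 in CCL4 (92.8 to 151), so that CON was the lowest there and the highest over the whole monocyte-like class, with the intervals of CON and CCL4 overlapping. In B cell cluster 9, with 101, 57 and 123 cells, it read 47.3, 32.5 and 20.4 CPM, with overlapping intervals.

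Msr1 read 61.4, 45.0 and 38.0 CPM in classical monocyte-like cells, in 23.5%, 12.4% and 9.46% of the cells, and the ratios to CON of 0.733 (0.522 to 1.04) and 0.619 (0.360 to 1.03) included 1. Within cluster 25 Msr1 read 39.4, 45.0 and 38.0 CPM, with overlapping intervals. In nonclassical monocyte-like cells of HFD it read 11.6 CPM from 20 UMIs. Its level in HFD was thus higher in the classical than in the nonclassical monocyte-like cells. Fcgr2b was also counted in basophil-like cells with 72.2, 75.8 and 28.2 CPM and in NK cell-like cells with 18.6, 12.9 and 15.7 CPM.

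Over 44 profiles of a class in a library, the genes whose level followed each receptor most closely were the following, given as a description, since profiles share libraries, depth and free RNA. Stab1 was followed by Mrc1 (Pearson r = 0.936), Stab2 (0.933) and Lyve1 (0.913), and Mrc1 by Stab1 (0.936), Dnase1l3 (0.913) and Mertk (0.902). Stab2 was followed by Fgd5 (0.964), Emcn (0.953) and Sox18 (0.950), Clec4g by Flt4 (0.960), Gpihbp1 (0.960) and Ldb2 (0.958), and Lyve1 by Sox18 (0.984), Cyp26b1 (0.960) and Pcdh17 (0.955). Of the macrophage receptors, Clec4f was followed by C1qa (0.975), C1qb (0.956) and Cd5l (0.942), and Marco by Cd207 (0.916), Ms4a7 (0.911) and Vsig4 (0.909). Cd163 was followed by Cd207 (0.843), Ms4a7 (0.833) and Mmp12 (0.831). The closest genes to Fcgr2b, which several classes share, were Cd93 (0.817), Elk3 (0.815) and Plxnd1 (0.799), and to Msr1 Il1a (0.832), Ifi204 (0.820) and Lgmn (0.790), and for these 2 receptors the highest correlation was lower than for the 8 others.

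A wider list of 54 scavenger, lectin, Fc and endocytic receptors and proteins of the uptake machinery, 53 of which were found, gave the setting of these 10. In endothelial-like cells of HFD, 5 of 29 tested were at least 2-fold higher and 2 lower, where 10.9% and 13.9% of all genes were, with a median of 0.877 beside 0.846 over all genes. In CCL4, 5 of 25 were higher and 13 lower, where 12.6% and 36.1% of all genes were, with a median of 0.485 beside 0.655 over all genes and 0.272 over the 7 receptors. Sinusoidal cells alone had 2 higher and 0 lower of 22 in HFD, where 11.0% and 11.8% of all genes were, and 2 higher and 7 lower of 19 in CCL4, where 10.1% and 21.8% were. Ehd3, an ATPase of endosomal recycling, read 1407, 1022 and 411 CPM in endothelial-like cells. Thbd, thrombomodulin, read 535, 232 and 85.1 CPM and was the gene of this list 2-fold lower in both models, at 0.434 and 0.159 of CON. Dab2, a clathrin adaptor, read 442, 460 and 188 CPM, and Fcer1g, the signalling chain of activating Fc receptors, 391, 358 and 69.2 CPM.

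The companion genes higher in endothelial-like cells of both models were Tfrc, the transferrin receptor, at 3.38 (1.24 to 11.5) and 7.81 (2.97 to 25.98) of CON, and the asialoglycoprotein receptor genes Asgr2, at 4.49 and 3.98, and Asgr1, at 2.65 and 3.38. Tfrc rested on 5 UMIs in CON and read 6.84, 23.1 and 53.4 CPM in endothelial-like cells beside 14.4, 17.4 and 75.9 CPM in hepatocyte-like cells. Asgr1 is a hepatocyte gene and read 150, 398 and 508 CPM in endothelial-like cells beside 603, 775 and 585 CPM in hepatocyte-like cells. Asgr2, its partner subunit, read 16.4, 73.6 and 65.3 CPM beside 90.8, 116 and 108 CPM. In CON the 3 genes were below the hepatocyte-like level, and in HFD Tfrc was above it. Like the hepatocyte markers given above, all 3 were higher in HFD and CCL4 than in CON. From HFD to CCL4 those markers, Tfrc and Asgr1 rose, while Asgr2 did not. The part of hepatocyte RNA in these levels was not tested. In Kupffer cell-like cells, 2 of 25 companion genes were at least 2-fold higher and 8 lower in HFD, where 13.5% and 22.3% of all genes were, and 1 of 23 higher and 7 lower in CCL4, where 9.98% and 22.6% were. Fcer1g read 2040, 1455 and 947 CPM there, Cd44, a hyaluronan receptor, 874, 357 and 521, Clec7a, the beta-glucan receptor dectin-1, 419, 199 and 268, and Clec12a, an inhibitory lectin, 353, 255 and 189. Lower in both models were Sorl1, a sorting receptor, at 0.331 (0.0997 to 0.867) and 0.204 (0.00500 to 1.24) of CON, Clec4n, the lectin dectin-2, at 0.427 (0.226 to 0.758) and 0.440 (0.138 to 1.08), and Fcgr3, an activating Fc receptor, at 0.473 (0.286 to 0.755) and 0.382 (0.136 to 0.864). The CCL4 values of Sorl1 and Clec4n rested on 1 and 5 UMIs, and their intervals include 1. Higher in both models was Asgr1, at 3.70 (2.66 to 5.22) and 2.60 (1.55 to 4.25).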

How the data were processed

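Liver cells of 3 groups of mice (CON, HFD, CCL4) were measured as 1 single-cell library each, with hepatocytes and nonparenchymal cells combined. The authors deposited unnormalized counts of UMIs for every gene in every barcode, written by Cell Ranger (7.2.0 in the file headers). Their methods name mm10, the processing notes GRCm39, and which was used for the files was not settled; how barcodes were chosen as cells and how strand was counted were not given in the sources used here.

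From these counts, 11205, 12982 and 12758 barcodes passed minima of 500 UMIs and 200 genes and a mitochondrial maximum of 30%. Scrublet marked 2, 1 and 3 barcodes, which were removed. With so few marks the caller did not work, and doublets remain. The libraries were clustered together (2000 variable genes without the 10 receptors, 30 principal components, 15 neighbours, Leiden resolution 1.0) in scanpy 1.11.5 under Python 3.11.15, with numpy 2.4.6, scipy 1.17.1, pandas 2.3.3, scikit-learn 1.9.0, igraph 0.11.9 and matplotlib 3.10.9. A class was named from markers raised at least 1.5-fold in at least 10% of its cells, with at least 3 such markers. Folds were taken within libraries. This naming rule and that for endothelial sub-clusters (1000 variable genes, 15 components, resolution 0.6, at least 5 sinusoidal markers, set aside with at least 3 markers of another class) were set after the clusters had been seen.

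UMIs were summed per class and library and scaled to CPM. Levels carry exact Poisson, shares Clopper-Pearson and ratios conditional 95% intervals, and ratios scaled to marker UMIs normal 95% intervals of the log ratio. These intervals cover counting error only. A ratio against 0 used 3 counts as the floor. Thinned shares are exact expectations at 1000 UMIs. Past 2-fold was the call, over genes with at least 20 UMIs. Steps were tested on simulated data. The members and lists were chosen with earlier results of these data known. Genes named were all 10 receptors, for each the 3 most correlated genes by log2(CPM + 5), the 4 companion receptors highest in control endothelial-like and in Kupffer cell-like cells among those at least 5-fold above hepatocyte-like cells, and at most 4 a class that passed 2-fold in the same direction in both models. Alternatives covered filters, doublets, clustering and scaling.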

Additional observations from a re-analysis of the deposited data

How the results depend on the processing

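No paired analysis was possible because each group had 1 library, and for the same reason no replicate could be left out. Of the values for whole comparisons, 124 stayed within the limit set for a change, 29 moved and 5 reversed, and of the values for single receptors 552 stayed, 140 moved and 14 reversed; the cause was not tested. Scaling to a class's own markers and the Vsig4, Timd4 or Cd5l split were chosen after seeing the data. For endothelial-like cells in HFD, own-library clustering gave 1 receptor higher and 1 lower, scaling to markers 1 higher and 1 lower with a median of 1.18 (1.01 in sinusoidal cells), and UMIs per cell 4 lower with a median of 0.488. In CCL4, scaling to markers left 0 lower with a median of 0.996, and 1 lower with 0.843 in sinusoidal cells. For Kupffer cell-like cells in HFD, the number higher was 0 with own-library clustering and 2 with at least 2000 UMIs, without the 8% highest doublet scores, with scaling outside mitochondrial and the 20 most abundant genes, and with scaling to markers, and the median was 0.201 at resolution 2.0, 0.135 with own-library clustering, 0.266 as UMIs per cell and 1.17 without the highest doublet scores. In CCL4 the number lower was 2 with more variable genes and with the 10% mitochondrial limit, 3 with at least 2000 UMIs, 5 as UMIs per cell and 0 without the highest doublet scores, with scaling to markers and in the Vsig4, Timd4 or Cd5l cells, the number higher was 2, 1 and 1 in the last 3, and the median was 1.57 without the highest doublet scores, 1.15 scaled to markers and 0.368 as UMIs per cell. Among single receptors whose reported ratio had an interval that leaves out 1, those that changed direction in HFD were Clec4f in Kupffer cell-like cells (0.755 at resolution 2.0, 0.599 with own-library clustering), Mrc1 in Kupffer cell-like cells (1.66 without the highest doublet scores) and in endothelial-like cells (1.05 with own-library clustering), and, scaled to markers, Stab1 (1.05), Mrc1 (1.29) and Clec4g (1.07) and in sinusoidal cells Stab1 (1.05) and Mrc1 (1.06). In CCL4 they were, scaled to markers, Msr1 (1.04), Lyve1 (1.34) and Fcgr2b (1.03), and in sinusoidal cells Stab1 (1.03) and Stab2 (1.06). Of the values scaled to markers in this list, Mrc1 in all endothelial-like cells in HFD had an interval that leaves out 1 (1.13 to 1.47). The intervals of the others included 1, so those values show no clear direction. Receptors whose reported CPM ratio had an interval that included 1 are not in that list, among them Stab2 (1.33 scaled to markers) and Fcgr2b (1.47) in endothelial-like cells in HFD, both below 1 as reported. The sinusoidal values in the list were set against the ratios of all endothelial-like cells. Within sinusoidal cells, Fcgr2b in HFD also changed direction, from 0.878 (0.778 to 0.991) in CPM to 1.25 (1.11 to 1.42) scaled to markers. Resolution 0.5 left no Kupffer cell-like class and gave no value for it, and Marco, Cd163 and Clec4f were then highest in classical monocyte-like and Msr1 in endothelial-like cells. With 22 CCL4 Kupffer cell-like and 50 sinusoidal cells, depth limits those ratios.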
